A study of Homo sapiens with 6 samples.

Results

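The genes described here are 10 genes of the Notch pathway, taken by symbol from a table of 17280 genes: the receptors NOTCH1, NOTCH2 and NOTCH3, the ligands JAG1, JAG2 and DLL1, the fringe enzyme LFNG, the coactivator MAML1, and the target genes HES1 and HEY1. All 10 were in the table and all 10 passed the filter for testing, a mean of at least 1 TPM (a gene's share of all transcripts, corrected for gene length) over the libraries. RNA was sequenced in 6 libraries of CAL-27, an established line of human tongue squamous cell carcinoma. The cells were cultured as spheres, which grow unattached and are used to select stem-like cells. In 3 libraries, titled LF3, the cells had been exposed for 24 h to LF3, an inhibitor of the binding of beta-catenin to its partner TCF4, according to the series' design. The treatment field of these same libraries names elesclomol-Cu, a carrier of copper into cells, so the agent is uncertain and the libraries are called LF3 by their titles. The other 3 libraries, titled CON, are normal controls of the same sphere culture. No label says that libraries of a group came from separate cultures, so p-values measure the spread between these libraries only, which may be technical. The number of reads behind a TPM value cannot be recovered, so depth is unknown here. Between 1948 and 1986 genes were listed at 0 in each LF3 library and between 1359 and 1407 in each CON library, and the part of this difference in the results was not tested.

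Notch is a receptor that is read by direct contact between cells. A ligand of the Jagged or Delta family on one cell binds the receptor on its neighbour, the receptor is cut by an ADAM protease and then by gamma-secretase inside the membrane, and the freed intracellular part moves to the nucleus. There it joins the DNA-binding protein RBPJ and a mastermind-like coactivator and turns on target genes, of which the repressors of the HES and HEY families are the best known. In squamous epithelium the pathway is known for its part in the exit from the basal layer and in differentiation.

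Of the 10 Notch genes, 6 were lower in LF3 libraries, 3 were higher, and 1 did not pass the test. The receptor gene NOTCH3 and the target gene HES1 fell most, the other receptors and the ligands JAG1 and DLL1 fell less, and the fringe gene LFNG rose most. Calls are from limma on log2(TPM + 1) with a Benjamini-Hochberg adjusted p under 0.05 over 12195 tested genes. Most of the transcriptome passed that threshold: 85.5% of tested genes were called, 53.2% as higher and 32.3% as lower. The groups did not overlap in 86.2% of tested genes, with LF3 above CON in 53.5% and below it in 32.7%. The 9 called members and the 9 whose groups did not overlap are therefore near the background. The median log2 fold change was -0.59 over the 10 genes and 0.24 over all genes tested. Because most genes moved, calls were repeated after 2 rescalings. Median-ratio scaling, with size factors from the tested genes, put the median of all genes at -0.0055; 7 members were then called lower and 2 higher, where 85.3% of tested genes were called, 42.7% lower and 42.6% higher. Quantile normalization gave 6 lower and 2 higher, where 85.4% of tested genes were called, 41.5% lower and 43.9% higher. A fold change below is the difference of LF3 from CON in mean log2(TPM + 1), with limma's standard error. In a bulk culture, fewer cells of a type and less RNA per cell cannot be told apart.

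**Figure D1:**
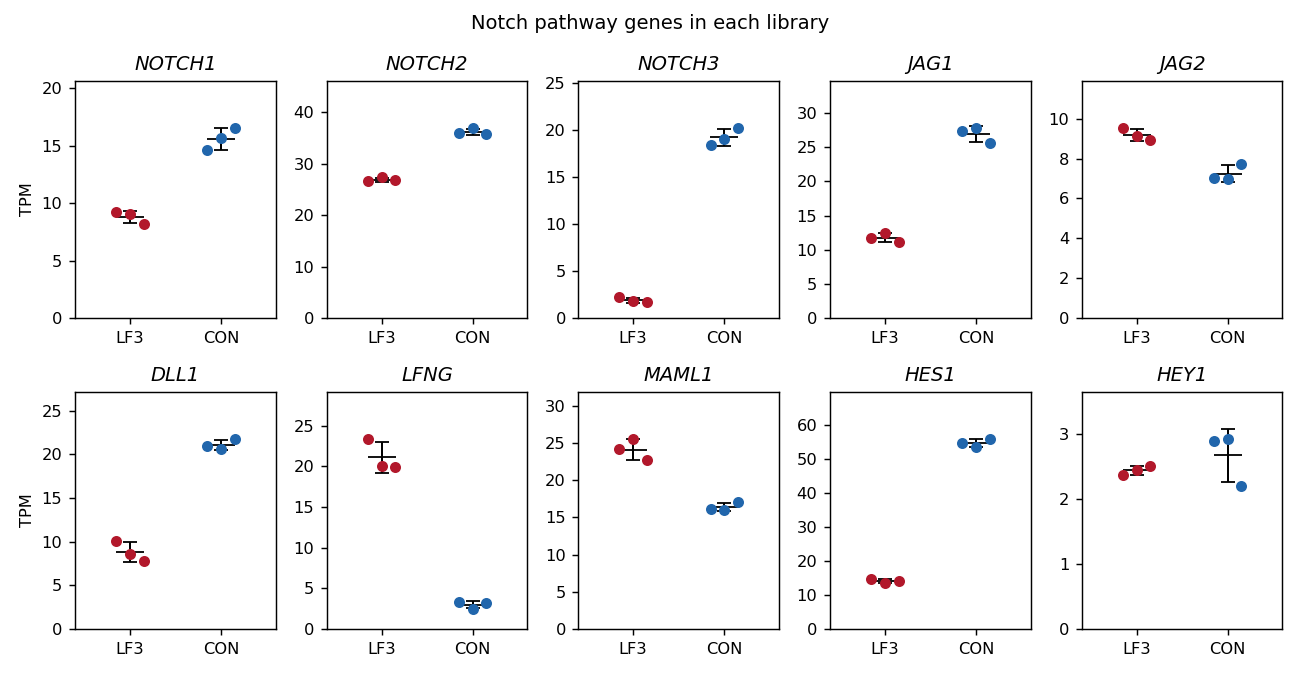
TPM (vertical axis, from 0, with a scale for each gene) of the 10 Notch genes in 3 LF3 libraries (red points) and 3 CON libraries (blue points); bars are mean ± SD. The groups overlap only for HEY1, and LFNG, MAML1 and JAG2 are the genes with the higher values in LF3.

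The promoters of HES1, NOTCH3 and LFNG are shown because these genes changed most. Promoters from RefSeq's table of GRCh38.p14 were examined for 8 of the 10 genes (9 entries, since LFNG has a pair of starts). Those of DLL1 and HEY1 were not examined. Each sequence is the 250 bases before the start, 5′ to 3′ on the gene's strand, and capitals mark the core letters that RBPJ is known to bind, TGGGAA or TTCCCA. HES1 lies at chr3:194135898-194136147 on the plus strand, the second LFNG entry at chr7:2517613-2517862 on the plus strand and NOTCH3 at chr19:15200996-15201245 on the minus strand, as RefSeq places them.
HES1: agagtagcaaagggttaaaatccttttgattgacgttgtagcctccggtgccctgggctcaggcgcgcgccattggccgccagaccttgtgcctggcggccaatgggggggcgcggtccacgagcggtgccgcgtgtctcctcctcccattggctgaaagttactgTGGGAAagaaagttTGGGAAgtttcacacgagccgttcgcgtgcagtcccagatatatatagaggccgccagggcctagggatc
NOTCH3: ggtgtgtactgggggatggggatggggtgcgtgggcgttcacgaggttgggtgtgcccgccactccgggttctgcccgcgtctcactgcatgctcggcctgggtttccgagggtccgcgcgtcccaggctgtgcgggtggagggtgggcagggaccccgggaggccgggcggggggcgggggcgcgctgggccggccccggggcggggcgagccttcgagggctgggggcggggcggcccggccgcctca
LFNG: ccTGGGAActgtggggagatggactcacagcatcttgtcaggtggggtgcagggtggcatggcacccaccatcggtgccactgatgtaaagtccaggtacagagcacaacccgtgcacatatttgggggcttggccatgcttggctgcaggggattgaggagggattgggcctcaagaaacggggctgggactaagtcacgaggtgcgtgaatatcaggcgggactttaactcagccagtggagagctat
HES1 held 2 matches, 84 to 79 and 70 to 65 bases before the start, on the same strand; of 35116 promoters in the table, 20.8% held at least 1 match in this window and 2.9% held 2 or more. The shown LFNG entry held 1 match, 248 to 243 bases before its start, and the other 7 entries, including that of NOTCH3 and the first LFNG entry, held none of these letters. The HES1 window also held 3 matches to the N box CACNAG or CTNGTG, with no overlap with the RBPJ core. The Hes1 protein of mice is known to bind these letters in its own promoter. Among all promoters, 0.911% held 3 or more N boxes and 32% held at least 1. The windows of NOTCH3, MAML1 and the shown LFNG entry held 1 N box each. These matches describe the letters of the reference only, and binding was not measured.

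NOTCH3, a receptor known in squamous epithelium and vascular muscle, stood at 2.23, 1.83 and 1.71 TPM in LF3 libraries, against 18.38, 19.11 and 20.18 TPM in CON libraries. Every LF3 library was far below every CON library, and the mean was 9.995-fold lower in LF3. The log2 fold change was -2.79 ± 0.087 (limma adjusted p = 2.14e-10), the 110th steepest fall among 12195 tested genes. NOTCH1, the receptor best known as a brake on growth in skin, stood at 9.20, 9.01 and 8.16 TPM in LF3 libraries, against 14.63, 15.62 and 16.48 TPM in CON libraries. Its groups did not overlap, with a mean 1.77-fold lower in LF3 and a log2 fold change of -0.76 ± 0.073 (limma adjusted p = 1.99e-06). NOTCH2, the most abundant receptor in every library, stood at 26.53, 27.32 and 26.76 TPM in LF3 libraries, against 35.85, 36.80 and 35.79 TPM in CON libraries. It fell least of the 3, by 0.41 ± 0.047 on the log2 scale (limma adjusted p = 8.46e-06), again without overlap. All 3 receptors were also called lower after median-ratio scaling (-1.01 for NOTCH1, -0.68 for NOTCH2 and -3.01 for NOTCH3).

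NOTCH2 shares near-identical sequence with the human genes NOTCH2NLA, NOTCH2NLB and NOTCH2NLC, so how reads were split between them is uncertain. NOTCH2NLA was listed at 5.18, 5.91 and 6.08 TPM in LF3 libraries and 7.52, 8.05 and 7.99 TPM in CON libraries. NOTCH2NLB had 3.80, 4.28 and 3.73 TPM in LF3 libraries and 6.52, 7.41 and 7.56 TPM in CON libraries, and NOTCH2NLC had 1.72, 1.36 and 1.61 TPM in LF3 libraries and 5.58, 5.63 and 5.17 TPM in CON libraries. All 3 copies lay lower in every LF3 library than in any CON library, as NOTCH2 did.

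The share of each receptor within their sum is the same whatever single factor a library is multiplied by. The 3 receptors summed to 37.6 ± 0.832 TPM in LF3 and 70.9 ± 1.86 TPM in CON (SD, n = 3 each). NOTCH3 made up 5.87, 4.80 and 4.67% of that sum in LF3 libraries, against 26.7, 26.7 and 27.9% in CON libraries. NOTCH2 made up 71.5 ± 1.58% in LF3 and 51.0 ± 1.39% in CON, and NOTCH1 23.4 ± 1.001% in LF3 and 21.9 ± 0.756% in CON. Per length, NOTCH3 was the scarcest of the 3 receptors in every LF3 library, whereas in every CON library it was above NOTCH1; the NOTCH1 share overlapped between the groups. The exact permutation test (two-sided) gave p = 0.1 for the NOTCH2 and NOTCH3 shares and for the sum, the smallest p that 3 libraries against 3 can give, and p = 0.2 for the NOTCH1 share. Over the 12 sums and shares compared here, including those of ligands and fringe genes, the adjusted values were 0.109 and 0.2. The log2 ratio of NOTCH1 to NOTCH3 was 2.20 ± 0.136 in LF3 and -0.30 ± 0.0217 in CON (SD, n = 3 each).

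Of the ligands, JAG1 and DLL1 were lower and JAG2 was not. JAG1, the Jagged ligand most widely expressed in epithelia, stood at 11.75, 12.46 and 11.19 TPM in LF3 libraries, against 27.42, 27.75 and 25.64 TPM in CON libraries. The groups did not overlap, and the log2 fold change was -1.13 ± 0.063 (limma adjusted p = 2.07e-08). DLL1, a Delta ligand known from basal keratinocytes, stood at 10.03, 8.58 and 7.74 TPM in LF3 libraries, against 20.95, 20.60 and 21.74 TPM in CON libraries. It was lower in every LF3 library, with a log2 fold change of -1.18 ± 0.085 (limma adjusted p = 1.68e-07). FAM120B overlaps DLL1 on the opposite strand in GENCODE's human annotation, and without strand information reads of the overlap cannot be assigned. FAM120B was listed at 34.25, 35.25 and 34.74 TPM in LF3 libraries and 23.55, 26.32 and 24.92 TPM in CON libraries, the other direction from DLL1. JAG1 and NOTCH1 likewise overlap annotated antisense RNAs (AL050403.2 and AL592301.1), which are not analysed here.

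JAG2, the other Jagged ligand, stood at 9.51, 9.15 and 8.92 TPM in LF3 libraries, against 7.04, 6.98 and 7.72 TPM in CON libraries. The groups did not overlap, and the log2 fold change was 0.31 ± 0.072 (limma adjusted p = 0.00212). That rise lay near the median of all genes, and the call was lost after median-ratio scaling (0.062, adjusted p = 0.402) and quantile normalization (0.079, adjusted p = 0.296). Its share of the ligand RNA, which a single factor per library does not alter, did not overlap between the groups. A share also depends on the other ligands, so it is no measure of JAG2 alone. The means of JAG1 and DLL1 were 2.28-fold and 2.40-fold lower in LF3. JAG2 made up 30.4, 30.3 and 32.0% of the summed TPM of the 3 ligands in LF3 libraries, against 12.7, 12.6 and 14.0% in CON libraries. The ligands summed to 29.8 ± 1.76 TPM in LF3 and 55.3 ± 0.161 TPM in CON (SD, n = 3 each). JAG1 made up 39.7 ± 1.91% in LF3 and 48.7 ± 1.93% in CON, and DLL1 29.4 ± 2.30% in LF3 and 38.2 ± 1.154% in CON. The log2 ratio of JAG1 to JAG2 was 0.36 ± 0.0755 in LF3 and 1.89 ± 0.142 in CON, and that of JAG2 to DLL1 was 0.074 ± 0.142 in LF3 and -1.54 ± 0.0429 in CON. Each of these ratios gave p = 0.1 between the groups (exact permutation test, the smallest possible). Per length, the values of JAG2 and DLL1 overlapped in LF3 libraries, whereas DLL1 was above JAG2 in every CON library. The ratio of JAG1 to DLL1 overlapped between the groups, at 0.43 ± 0.177 in LF3 and 0.35 ± 0.101 in CON (p = 0.6, exact permutation test). Of 7 such ratios compared, the adjusted p was 0.117 for 6 and 0.6 for this one.

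**Figure D2:**
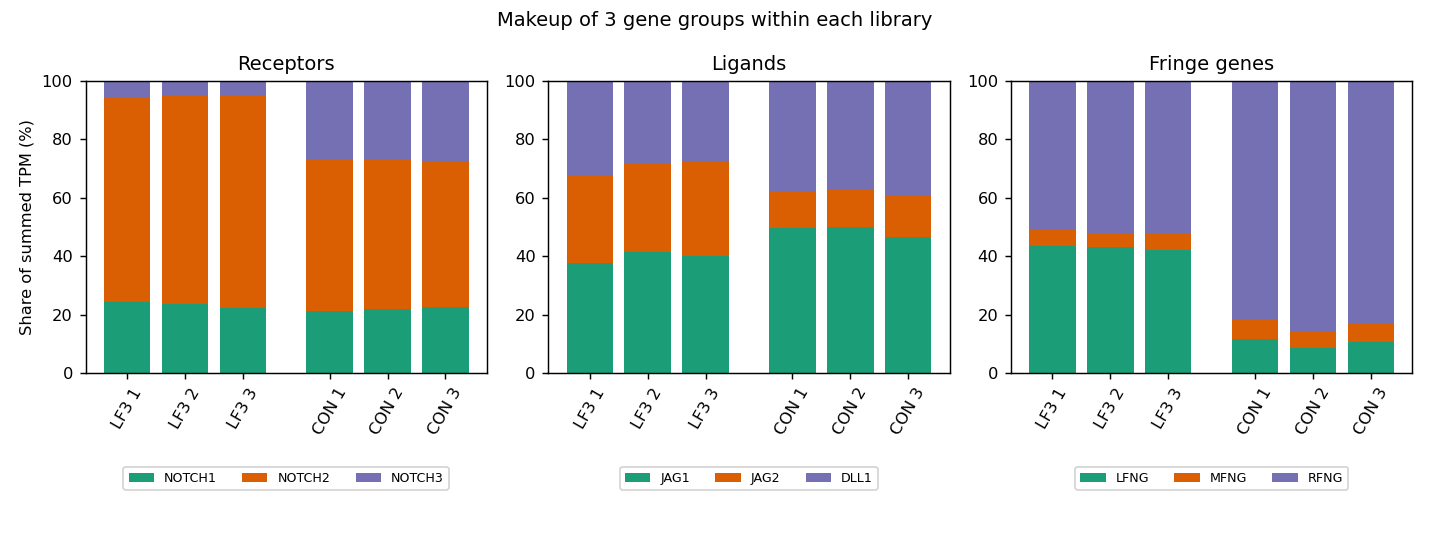
Share of the summed TPM (vertical axis, in %) held by each receptor, ligand and fringe gene within each library, with 3 LF3 libraries left of 3 CON libraries in each panel. NOTCH3 holds 4.67 to 5.87% of the receptor sum in LF3 and 26.7 to 27.9% in CON, and LFNG holds 42.1 to 43.6% of the fringe sum in LF3 and 8.48 to 11.6% in CON.

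LFNG, a fringe enzyme of the Golgi that adds a sugar to fucose on the receptors and thereby shifts which ligands they answer to, showed the largest rise of the 10 genes. It stood at 23.35, 20.09 and 19.91 TPM in LF3 libraries, against 3.35, 2.45 and 3.21 TPM in CON libraries. The mean was 7.03-fold higher in LF3, with no overlap, and the log2 fold change of 2.47 ± 0.10 (limma adjusted p = 1.84e-09) was the 154th steepest rise among all tested genes. The other fringe genes changed less. MFNG stood at 2.63 ± 0.495 TPM in LF3 and 1.86 ± 0.125 TPM in CON, and RFNG at 25.4 ± 1.47 TPM in LF3 and 24.4 ± 0.667 TPM in CON (SD, n = 3 each). RFNG was called lower after median-ratio scaling (-0.21) and quantile normalization (-0.27). RFNG and this grouping of the fringe genes were chosen after their values were seen. LFNG made up 43.6, 43.1 and 42.1% of the summed fringe RNA in LF3 libraries, against 11.6, 8.48 and 10.7% in CON libraries (p = 0.1, exact permutation test). In CON libraries RFNG dominated the fringe genes, while in LF3 libraries LFNG and RFNG were of similar abundance per length.

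MAML1, the mastermind-like coactivator that bridges the receptor's intracellular part and RBPJ to acetyltransferases, stood at 24.18, 25.54 and 22.72 TPM in LF3 libraries, against 16.20, 15.98 and 17.02 TPM in CON libraries. It was higher in every LF3 library, with a log2 fold change of 0.53 ± 0.062 (limma adjusted p = 1.01e-05). The value was 0.27 after median-ratio scaling and 0.23 after quantile normalization, with the call kept in both.

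Of the target genes, HES1 fell steeply and HEY1 did not pass the test. HES1, the repressor that Notch induces in most tissues, stood at 14.72, 13.59 and 14.00 TPM in LF3 libraries, against 54.60, 53.29 and 55.70 TPM in CON libraries. The mean was 3.87-fold lower in LF3 without overlap, with a log2 fold change of -1.88 ± 0.052 (limma adjusted p = 9.7e-11), the 358th steepest fall. HES1 was the most abundant of the 10 genes in CON, and in LF3 it stood below NOTCH2, MAML1 and LFNG in every library. HEY1, a related repressor, was scarce, at 2.37, 2.45 and 2.51 TPM in LF3 libraries, against 2.89, 2.92 and 2.20 TPM in CON libraries. Its groups overlapped, since CON replicate 3 lay below all LF3 libraries, and the log2 fold change was -0.086 ± 0.10 (limma adjusted p = 0.453). It was called lower after median-ratio scaling (-0.28, adjusted p = 0.0258) and not after quantile normalization (-0.019, adjusted p = 0.873). The log2 ratio of HES1 to HEY1 was 2.53 ± 0.0920 in LF3 and 4.36 ± 0.259 in CON (p = 0.1, exact permutation test).

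**Figure D3:**
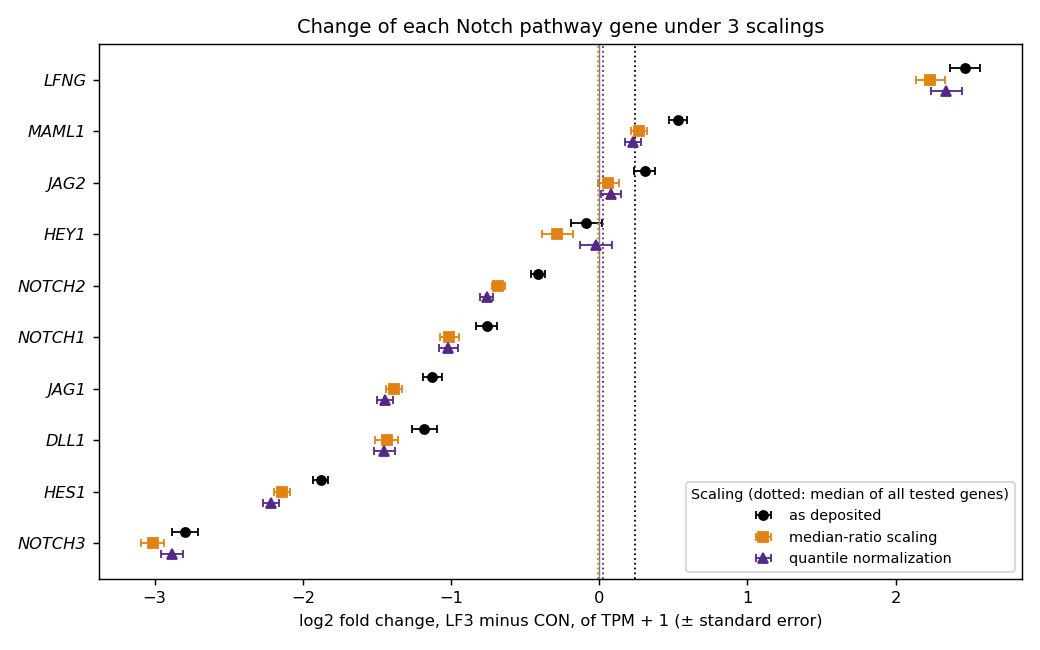
Log2 fold change of TPM + 1, LF3 minus CON (horizontal axis), of the 10 Notch genes as deposited (circles), after median-ratio scaling (squares) and after quantile normalization (triangles), with standard errors; dotted lines are the medians of all tested genes. LFNG lies at 2.23 to 2.47 and NOTCH3 at -3.01 to -2.79 under every scaling, whereas JAG2 moves to 0.062 and 0.079 after rescaling.

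The levels per length, by group mean, ran in LF3 libraries as NOTCH2, MAML1, LFNG, HES1, JAG1, JAG2, NOTCH1, DLL1, HEY1 and NOTCH3. In CON libraries the order was HES1, NOTCH2, JAG1, DLL1, NOTCH3, MAML1, NOTCH1, JAG2, LFNG and HEY1. Neighbours in that order whose values overlapped in LF3 were MAML1 with LFNG, JAG2 with NOTCH1, and NOTCH1 with DLL1. In CON, MAML1 and NOTCH1 overlapped, as did LFNG and HEY1.

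The rest of the pathway was described through 9 lists with 70 genes in the table, of which 60 were tested. Together 26 were called higher and 21 lower, where 53.2% and 32.3% of all tested genes were, with a median log2 fold change of 0.079 beside 0.24 for all genes. After median-ratio scaling 17 were called higher and 31 lower, where 42.6% and 42.7% of all tested genes were, with a median of -0.19. These shares of all genes are the background for the counts of each list below, which hold few genes each and are a description only. The fourth receptor NOTCH4 and the Delta ligands DLL3 and DLL4 lay under the filter. DLL4 was listed at 0.06, 0.09 and 0.12 TPM in LF3 libraries and 0.85, 0.92 and 1.25 TPM in CON libraries, the same side as DLL1. NOTCH4 was at most 0.06 TPM in LF3 libraries and 0.24 TPM in CON libraries, and DLL3 was listed at 0 in 2 of 3 LF3 libraries and in all CON libraries. The membrane proteins DLK2 and DNER, which are related to the ligands, went opposite ways. DLK2 stood at 0.987 ± 0.169 TPM in LF3 and 8.17 ± 0.862 TPM in CON, and DNER at 9.25 ± 0.812 TPM in LF3 and 2.34 ± 0.200 TPM in CON (SD, n = 3 each; limma adjusted p = 5.16e-09 and 2.12e-08).

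Of 6 tested genes that act on the ligand in the sending cell, 4 were lower and 1 higher, beside 32.3% and 53.2% of all tested genes. After median-ratio scaling 5 were lower and 0 higher, beside 42.7% and 42.6%. They include MIB1 and MIB2, ubiquitin ligases that drive the uptake of bound ligand, with log2 fold changes of -0.40 ± 0.075 and -0.45 ± 0.081. The ligase genes NEURL1 and NEURL1B had -0.71 ± 0.077 and -0.35 ± 0.081, and EPN1, an epsin of endocytosis, had 0.38 ± 0.072, a call lost after both scalings (0.13 and 0.083).

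Of 5 other tested enzymes that put sugars on the receptors, 4 were higher and 0 lower, beside 53.2% and 32.3% of all tested genes. After median-ratio scaling 3 were higher and 1 lower, beside 42.6% and 42.7%. POFUT1, which adds the fucose that fringe enzymes extend, stood at 52.7 ± 0.925 TPM in LF3 and 20.1 ± 0.887 TPM in CON. POGLUT1, which adds glucose, stood at 7.77 ± 1.03 TPM in LF3 and 2.26 ± 0.142 TPM in CON, and EOGT, which adds N-acetylglucosamine, at 5.57 ± 0.680 TPM in LF3 and 2.37 ± 0.211 TPM in CON (SD, n = 3 each). The log2 fold changes were 1.35 ± 0.051 for POFUT1, 1.42 ± 0.10 for POGLUT1 and 0.96 ± 0.10 for EOGT (limma adjusted p = 4.54e-06 or lower), each also called after both scalings. MFNG had 0.33 ± 0.11 (limma adjusted p = 0.0185), and its call was lost after median-ratio scaling and without LF3 replicate 1 or CON replicate 2 (adjusted p = 0.243, 0.0824 and 0.0559).

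The proteases that cut the receptor moved in both directions, with 4 of 9 higher and 3 lower (3 and 5 after median-ratio scaling). FURIN, which cuts the receptor on its way to the surface, had a log2 fold change of 0.61 ± 0.045. ADAM10, the main protease of ligand-induced cutting, had 0.39 ± 0.081, a call lost after both scalings (0.12 and 0.044), and ADAM17 had -0.20 ± 0.050. Within gamma-secretase the paralogous subunits diverged. The catalytic subunit PSEN2 stood at 23.7 ± 1.08 TPM in LF3 and 5.58 ± 0.573 TPM in CON, a 4.24-fold higher mean in LF3. The scaffold subunit APH1A had 0.62 ± 0.035 and its paralog APH1B -1.04 ± 0.11, while nicastrin, NCSTN, had -0.63 ± 0.039. These 4 were called in the same direction after both scalings.

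In the nuclear complex, RBPJ, the DNA-binding protein of the pathway, stood at 19.50, 20.25 and 16.47 TPM in LF3 libraries, against 32.91, 33.19 and 30.73 TPM in CON libraries. It was lower in every LF3 library, with a log2 fold change of -0.76 ± 0.076 (limma adjusted p = 2.97e-06). Of the 7 tested genes of this list, 3 were higher and 1 lower (2 and 4 after median-ratio scaling). MAML2, a paralog of MAML1, had 0.50 ± 0.079 and the acetyltransferase gene KAT2A 0.89 ± 0.055. CREBBP had 0.23 ± 0.063, close to the median of all genes, and it was -0.025 and -0.061 without a call after the scalings. MAML3 lay under the filter, at no more than 0.42 TPM in any LF3 library and 0.23 TPM in any CON library.

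Of 12 tested corepressors, 7 were higher and 2 lower, and 4 and 4 after median-ratio scaling. The share of higher calls was near that of all tested genes, 53.2% as deposited and 42.6% when rescaled. The histone deacetylases HDAC1 and HDAC2 had log2 fold changes of 0.83 ± 0.033 and 0.97 ± 0.045, and CTBP1, a corepressor, 0.52 ± 0.055. CTBP2 had 0.34 ± 0.056 with its call lost after both scalings (0.069 and -0.027), and TLE1 had 0.41 ± 0.051, lost after quantile normalization. CIR1, a corepressor that binds RBPJ, stood at 25.0 ± 2.37 TPM in LF3 and 57.7 ± 1.46 TPM in CON (SD, n = 3 each), and TLE3, a Groucho-type corepressor of HES proteins, had -0.19 ± 0.063. TLE2 lay under the filter, listed at 0, 0.05 and 0 TPM in LF3 libraries and 0.51, 0.36 and 0.73 TPM in CON libraries.

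Inhibitors of the pathway and genes of receptor turnover were split, with 5 of 11 higher and 4 lower (4 and 5 after median-ratio scaling). NUMB, which directs receptors to degradation, stood at 43.6 ± 1.81 TPM in LF3 and 71.1 ± 2.81 TPM in CON, whereas its paralog NUMBL stood at 13.0 ± 0.705 TPM in LF3 and 6.77 ± 0.379 TPM in CON (SD, n = 3 each). The ubiquitin ligase genes ITCH and FBXW7 had log2 fold changes of -1.16 ± 0.066 and -0.44 ± 0.075, and NEDD4 had 0.74 ± 0.068. Of the deltex genes, DTX3 had -1.10 ± 0.075, DTX3L 1.20 ± 0.068, DTX2 0.68 ± 0.074 and DTX4 0.35 ± 0.087, the last without a call after median-ratio scaling (0.15). DTX1 lay under the filter, at no more than 0.11 TPM in any library. NRARP, a target of Notch that feeds back on the complex, stood at 10.94, 11.42 and 11.24 TPM in LF3 libraries, against 11.71, 11.60 and 13.71 TPM in CON libraries. Its log2 fold change was -0.13 ± 0.076 (limma adjusted p = 0.142), and median-ratio scaling (-0.38) and quantile normalization (-0.41) each made it a lower call.

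Other genes of the HES and HEY families were lower in 4 of 5 tested and higher in 0, beside 32.3% and 53.2% of all tested genes. Quantile normalization gave 3 lower and 1 higher, beside 41.5% and 43.9%. HES4 stood at 17.47, 17.81 and 17.07 TPM in LF3 libraries, against 29.23, 32.77 and 36.19 TPM in CON libraries. HES6, which is known to oppose HES1 in the nervous system of mice, stood at 6.98, 5.41 and 4.85 TPM in LF3 libraries, against 17.13, 19.08 and 19.00 TPM in CON libraries. HES7 stood at 0.95, 0.76 and 0.78 TPM in LF3 libraries, against 3.98, 3.47 and 4.56 TPM in CON libraries. All 3 lay lower in every LF3 library, with log2 fold changes of -0.87 ± 0.074, -1.53 ± 0.11 and -1.45 ± 0.11 (limma adjusted p = 7.42e-07, 1.4e-07 and 2.53e-07). HEYL had -0.29 ± 0.11 (limma adjusted p = 0.0317), and quantile normalization ended that call (adjusted p = 0.392). So did array weights (adjusted p = 0.0709) and leaving out LF3 replicate 1 or 3 or CON replicate 2 or 3 (adjusted p = 0.0708 to 0.104). HES2 had 0.20 ± 0.10 (limma adjusted p = 0.0936) and was called higher after quantile normalization (0.39) and without a variance trend. HES5 was listed at 0 in all LF3 libraries and at no more than 0.10 TPM in CON libraries, and HEY2 at no more than 0.64 TPM in LF3 libraries and 0.74 TPM in CON libraries.

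Of 3 tested genes of keratinocyte differentiation that Notch is known to affect in skin, 2 were lower and 1 higher (2 and 0 after median-ratio scaling). CDKN1A, the cell cycle inhibitor p21, stood at 50.36, 48.83 and 50.12 TPM in LF3 libraries, against 201.18, 203.24 and 205.35 TPM in CON libraries. It lay far lower in every LF3 library, with a log2 fold change of -2.01 ± 0.037 (limma adjusted p = 5.57e-12). The suprabasal keratin KRT10 had -0.41 ± 0.051. TP63, the master factor of basal cells, had 0.22 ± 0.071, with overlapping groups; it was -0.047 without a call after median-ratio scaling and was called lower after quantile normalization (-0.16). Its call was also lost without LF3 replicate 1 or 2 (adjusted p = 0.0527 and 0.0524). The differentiation genes IVL and KRT1 lay under the filter, at no more than 0.58 TPM in any library.

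**Figure D4:**
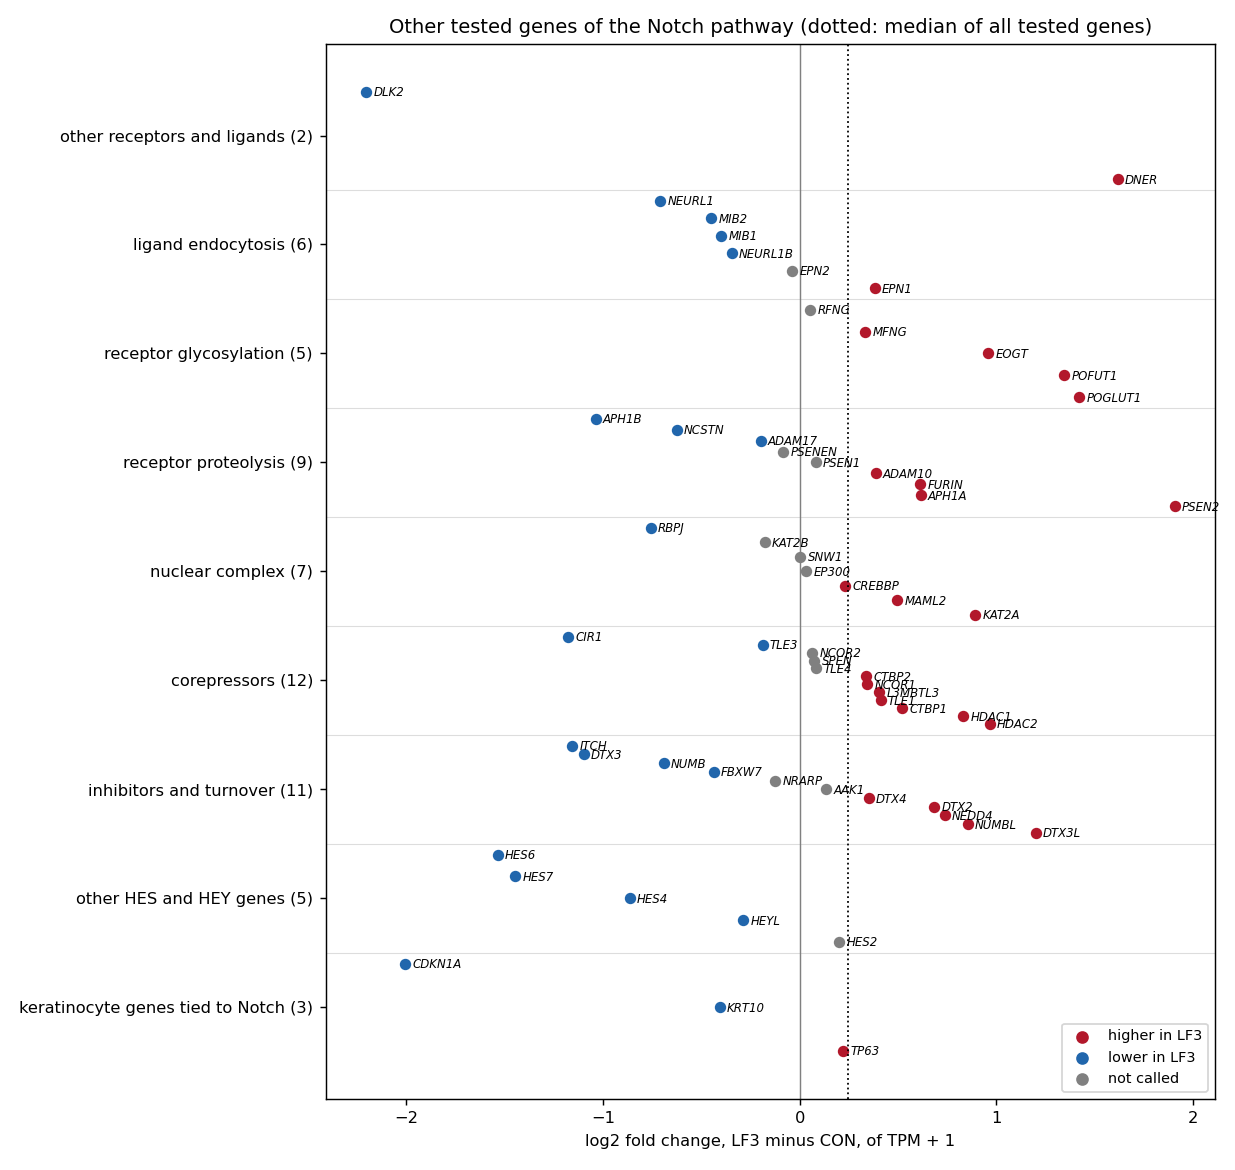
Log2 fold change of TPM + 1, LF3 minus CON (horizontal axis), of the 60 other tested pathway genes, grouped by role (number tested in brackets) and coloured by limma call; the dotted line is the median of all genes, 0.24. POFUT1, POGLUT1 and EOGT lie to the right of that line and the 5 HES and HEY genes and 3 keratinocyte genes to its left, and the other groups have genes on both sides.

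The labelled cell type was checked with 8 squamous epithelial markers. Their summed level was 1639 to 1675 TPM in LF3 libraries and 1005 to 1010 TPM in CON libraries, and of 7 tested, 5 were called higher and 1 lower (3 and 3 once median-ratio scaled). The basal keratin KRT5 stood at 454 ± 6.66 TPM in LF3 and 102 ± 3.43 TPM in CON, and the epithelial gene SFN at 608 ± 6.02 TPM in LF3 and 339 ± 18.2 TPM in CON (SD, n = 3 each). KRT6A and CDH1 had log2 fold changes of 0.41 ± 0.051 and 0.13 ± 0.040, and DSG3 had -0.32 ± 0.088. The KRT6A call was lost after quantile normalization (0.041, adjusted p = 0.425), and CDH1 was called lower after both scalings (-0.14 and -0.17). EPCAM averaged 337 TPM in both groups and was called lower after both scalings (-0.27 and -0.19), and KRT14 was under 1 TPM in every library. Of 7 markers of leukocytes, endothelium, fibroblasts and hepatocytes in the table, 5 (PTPRC, CD3E, PECAM1, COL1A2 and ALB) lay under the filter and PTPRC was listed at 0 in every LF3 library and at no more than 0.02 TPM in CON libraries. Their summed level was 10.7 to 12.0 TPM in LF3 libraries and 10.1 to 11.5 TPM in CON libraries. Within it the endothelial cadherin CDH5 stood at 5.93, 5.70 and 6.93 TPM in LF3 libraries and 0.11 TPM in each CON library, while the endothelial gene PECAM1 was at no more than 0.31 TPM in LF3 libraries and 0.32 TPM in CON libraries. The fibroblast collagen COL1A1 stood at 4.31 ± 0.211 TPM in LF3 and 9.27 ± 0.700 TPM in CON (SD, n = 3 each). The part of these genes in the Notch results was not tested.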

How the data were processed

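Processed values of 6 libraries of CAL-27 sphere cells were used, 3 titled LF3 and 3 titled CON. The deposited table gives TPM per gene, written to 2 decimals, with every library summing to the same total, as the file's own values show. HISAT and Bowtie2 are named, without versions, in the submitters' processing notes, beside the genome GRCm38.p6. That is a mouse build, whereas identifiers and symbols are human, so the reference that reads were aligned to is uncertain; 17222 of 17280 gene identifiers, and all 10 members, were found in RefSeq's human table. Whether counting used strand is not given either. The extraction protocol in the labels names Trizol and a BGISEQ500 instrument.

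From the deposited TPM, log2(TPM + 1) was tested with limma 3.58.1 in R 4.3.3 (mean-variance trend, two-sided, Benjamini-Hochberg adjustment, threshold 0.05) over the 12195 genes averaging 1 TPM or more. The pseudocount understates changes of low genes. The fit has no replicate block, since the labels do not pair libraries. Shares and ratios within a library were compared by exact permutation with scipy 1.17.1. The fit was repeated with each library left out, with a replicate block, with median-ratio or quantile scaling, with other pseudocounts (0.1 and 0.5) and filters (5 TPM, or none), and with array weights, robust variances or no trend. The members, the 11 other lists and the tests were chosen with earlier results of these data known. Named are all members and, of each other list, up to 5 called genes in each direction with the smallest adjusted p, genes under the filter, and a fixed set (RBPJ, NOTCH4, DLL4, ADAM10, ADAM17, NRARP and HES and HEY genes). No list was given a test of its own. A gene of the keratinocyte list is not reported here and is not in that list's counts. Figures were drawn with matplotlib 3.10.9.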

Additional observations from a re-analysis of the deposited data

How the results depend on the processing

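Of the 10 members, 8 kept their direction and their side of the threshold under every alternative run; the exceptions were JAG2 and HEY1 under rescaling, with the values given above, and HEY1 was not tested under the filter of 5 TPM. Leaving out any single library changed no call among the members, with 3 higher and 6 lower each time. The genes called over the whole table ranged from 6259 to 6566 higher and 3799 to 3885 lower when a library was left out, and were 5195 and 5205 after median-ratio scaling, and 5351 and 5059 after quantile normalization, so the split of all calls depends on the scaling. Of the other pathway genes, 24 to 26 were higher and 20 to 21 lower when a library was left out; 17 were higher after median-ratio scaling, against 26 as deposited, as the median of all genes moved toward 0. Signs turned for CREBBP (-0.025 and -0.061 after median-ratio scaling and quantile normalization), TP63 (-0.047 and -0.16) and CTBP2 (-0.027 after quantile normalization). When a library was left out, the difference LF3 minus CON ranged from -22.4 to -21.6 percentage points for the NOTCH3 share, 19.8 to 21.4 for NOTCH2 and 1.001 to 1.98 for NOTCH1, from -10.2 to -8.00 for JAG1, 17.2 to 18.2 for JAG2 and -10.1 to -7.93 for DLL1, from -34.4 to -32.6 TPM for the receptor sum and from -26.3 to -24.5 TPM for the ligand sum. With the replicate number as a block, 6536 genes were higher and 3986 lower, against 6489 and 3938 without it, and no member's call changed. The deviations of same-numbered libraries correlated at 0.048, 0.11 and 0.16. Every LF3 library, and CON replicates 2 and 3, correlated best with the same number in the other group. CON replicate 1 correlated best with LF3 replicate 2 (0.074). The labels do not pair libraries, so the numbers were not taken as pairs. Depth is unknown in TPM, which limits what can be said of HEY1 and of genes under 1 TPM.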
